A study of Mus musculus with 8 samples.

Results

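The genes described here are 36 enzymes and regulators of cholesterol and fatty acid synthesis, taken by symbol from a list of that pathway, out of 55335 genes in the deposited table. They were followed in RAW264.7 cells, a macrophage-like line from a mouse leukaemia-virus-induced tumour, cultured for 3 days with either of 2 scaffolds for bone. In 4 libraries the cells had been kept with TABS, the Trio-Active bone scaffold, and in 4 with HA/Mg, a hydroxyapatite doped with magnesium ions; both groups carry replicate numbers 5 to 8, and library values are given in that order. The labels describe no scaffold-free cells, the components of TABS are not named, and separate cultures are not mentioned, so p-values measure only how much these libraries vary, and that may be technical variation. In the library names H stands for TABS and L for HA/Mg, letters left unexplained in the labels, and an exchange of the groups would turn every direction given here.

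Cells build cholesterol from acetyl-CoA through mevalonate, isoprenoid diphosphates, squalene and lanosterol, and build fatty acids from the same acetyl-CoA by carboxylation, chain assembly, elongation and desaturation. Both branches are transcribed under sterol regulatory element binding proteins (SREBPs), membrane-bound factors that the escort protein Scap carries from the endoplasmic reticulum to the Golgi for cleavage and that Insig proteins hold back when sterol is plentiful. In macrophages these branches supply membrane, and sterol intermediates act as ligands of liver X receptors. The list divides into a sterol arm of 18 enzymes, a fatty acid arm of 14 enzymes and 4 regulators (Insig1, Srebf1, Srebf2 and Scap).

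The stretches before the start sites of 4 members are shown because these genes carry the results below. Hmgcs1, Idi1 and Mvd are the 3 sterol enzymes past the threshold, and Hmgcs1 and Acss2 are the 2 members that still passed after correction for transcript length and GC content. Sequences are the 250 bases before the RefSeq start (GRCm38.p6), 5′ to 3′ on the strand of the gene. Capitals mark CCAAT, the box bound by NF-Y, and TCACNCCAC, a form of the sterol regulatory element, on either strand. The windows are chr13:119690101-119690350 on the plus strand for Hmgcs1, chr13:8885356-8885605 on the plus strand for Idi1, chr8:122443423-122443672 on the minus strand for Mvd and chr2:155517793-155518042 on the plus strand for Acss2; the GENCODE gene starts of Idi1 and Acss2 lie within their windows.
Hmgcs1: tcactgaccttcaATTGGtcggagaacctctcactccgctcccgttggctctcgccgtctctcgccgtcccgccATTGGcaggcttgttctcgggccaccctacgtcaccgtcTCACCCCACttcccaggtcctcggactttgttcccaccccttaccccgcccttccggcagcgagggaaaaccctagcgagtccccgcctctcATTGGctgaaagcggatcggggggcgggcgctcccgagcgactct
Idi1: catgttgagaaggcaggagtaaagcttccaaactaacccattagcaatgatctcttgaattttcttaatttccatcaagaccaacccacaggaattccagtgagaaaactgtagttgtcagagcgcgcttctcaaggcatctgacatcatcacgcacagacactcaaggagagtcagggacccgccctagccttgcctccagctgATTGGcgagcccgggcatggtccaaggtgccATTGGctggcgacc
Mvd: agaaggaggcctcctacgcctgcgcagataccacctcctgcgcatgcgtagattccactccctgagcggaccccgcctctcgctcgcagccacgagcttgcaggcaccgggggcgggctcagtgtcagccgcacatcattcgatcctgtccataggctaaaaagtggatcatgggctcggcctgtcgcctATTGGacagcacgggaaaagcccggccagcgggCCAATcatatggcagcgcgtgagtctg
Acss2: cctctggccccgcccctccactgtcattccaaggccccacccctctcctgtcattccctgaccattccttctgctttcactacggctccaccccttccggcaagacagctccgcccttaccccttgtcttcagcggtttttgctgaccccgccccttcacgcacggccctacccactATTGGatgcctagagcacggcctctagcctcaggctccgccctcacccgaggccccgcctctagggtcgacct
RefSeq windows were found for 30 of the 36 members, 38 windows in all; Fdps, Fdft1, Sqle, Scd1, Scd2 and Fads1 had none. CCAAT stood in 24 of the 38 windows (63.2%) and in 33.8% of all 32851 windows, and GGGCGG, the Sp1 box, in 28 (73.7%) against 32.7% of all windows. TCACNCCAC stood in 2 windows (5.26%), those of Hmgcs1 and Acsl1, against 1.05% of all. Both the Idi1 and the Mvd window held 2 CCAAT boxes and the Hmgcs1 window 3. These matches describe letters only.

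Expression was deposited as FPKM, a fragment count corrected for transcript length and for library size. All 36 members had at least 1 FPKM in at least 4 libraries, the level required for testing, which 10161 genes reached. Members' means over both groups ran between 1.85 FPKM (Tm7sf2) and 133 FPKM (Fdps). Depth could only be estimated from the spacing of low values, at 20000000 to 23900000 fragments per library, or 39400000 to 47200000 units on a finer spacing. In limma's fit over all genes, with Benjamini-Hochberg adjustment, 1842 (18.1%) passed the threshold (adjusted p under 0.05) and are called changed, of which 515 were higher with TABS (5.07% of genes tested) and 1327 lower (13.1%). The cells carried macrophage markers (the sum of 8 was 2075 to 2441 FPKM with TABS and 1744 to 2178 FPKM with HA/Mg), although the mannose receptor Mrc1 was near 0. Of the 7 macrophage markers tested 3 rose: Csf1r (112.5 ± 3.72 FPKM with TABS, 96.5 ± 0.988 FPKM with HA/Mg, adjusted p = 0.01125), Fcgr3 (9.53 ± 0.215 FPKM with TABS, 7.66 ± 0.599 FPKM with HA/Mg, adjusted p = 0.0167) and Cd68 (539 ± 16.6 FPKM with TABS, 450 ± 33.0 FPKM with HA/Mg, adjusted p = 0.0197). All 3 also passed after the length and GC correction, and Csf1r and Fcgr3 in all 8 fits with 1 library left out, Cd68 in 5. Adgre1 and Lyz2 did not pass, with positive log2 changes (0.25 and 0.18, adjusted p = 0.0579 and 0.200). Ptprc and Itgam did not pass either, with negative log2 changes (-0.12 and -0.08, adjusted p = 0.291 and 0.758). Summed markers of stroma, epithelium, osteoblasts, T cells and B cells stayed at or below 0.560 FPKM in every library. The osteoclast markers summed to 2.14 to 3.80 FPKM with TABS and 2.01 to 2.55 FPKM with HA/Mg. Of 3 adipocyte markers Adipoq was at 0 and Plin1 near 0, while Fabp4, which macrophages also express, made up nearly all of the sum of 15.9 to 18.8 FPKM with TABS and 11.8 to 14.9 FPKM with HA/Mg. Fabp4 passed (adjusted p = 0.0472), but in 0 of the 8 limma fits with 1 library left out; the part of the marker levels in the results below was not tested. Fewer cells of a kind and less RNA per cell cannot be told apart in such samples.

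Cholesterol and fatty acid synthesis genes did not move as a block between TABS and HA/Mg. Of the 36, 12 changed (33.3%, against 18.1% of all genes tested), 6 higher with TABS and 6 lower, with log2 changes between -0.47 and 0.23. Lower with TABS were Hmgcs1 and Idi1 of the mevalonate steps, the acetyl-CoA carboxylase Acaca, the elongases Elovl5 and Elovl6, and the acyl-CoA synthetase Acsl3. Higher were Mvd, which makes isopentenyl diphosphate, the acetyl-CoA supplier Acss2, the desaturases Fads1 and Fads2, and the regulators Srebf2 and Scap. With a minimum of 5 FPKM in at least 4 libraries, 12 members passed, 11 of them the same. Elovl6 and Tm7sf2 lay below that minimum in every library and were not tested there. The share of all genes tested that passed was then higher, at 24.2%. For 18 of the 36 members the groups lay apart without overlap (50% of them, against 23.1% of all genes tested). Log2 changes were positive for 16 of the 36, against 42.3% of all genes tested. The median log2 change was -0.01 over the members and -0.04 over all genes tested. The split between directions depended on scaling: 8 members were higher and 4 lower with median-of-ratios scaling, 9 higher and 5 lower with quantile normalization, and 2 higher and 7 lower after rescaling to equal sums. Over all genes the higher share of the calls was 28.0% as deposited, 45.5%, 40.3% and 13.9% under those 3 scalings. Hmgcs1, Idi1, Mvd, Acss2, Elovl6 and Acsl3 passed as deposited and under all 3.

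**Figure D1:**
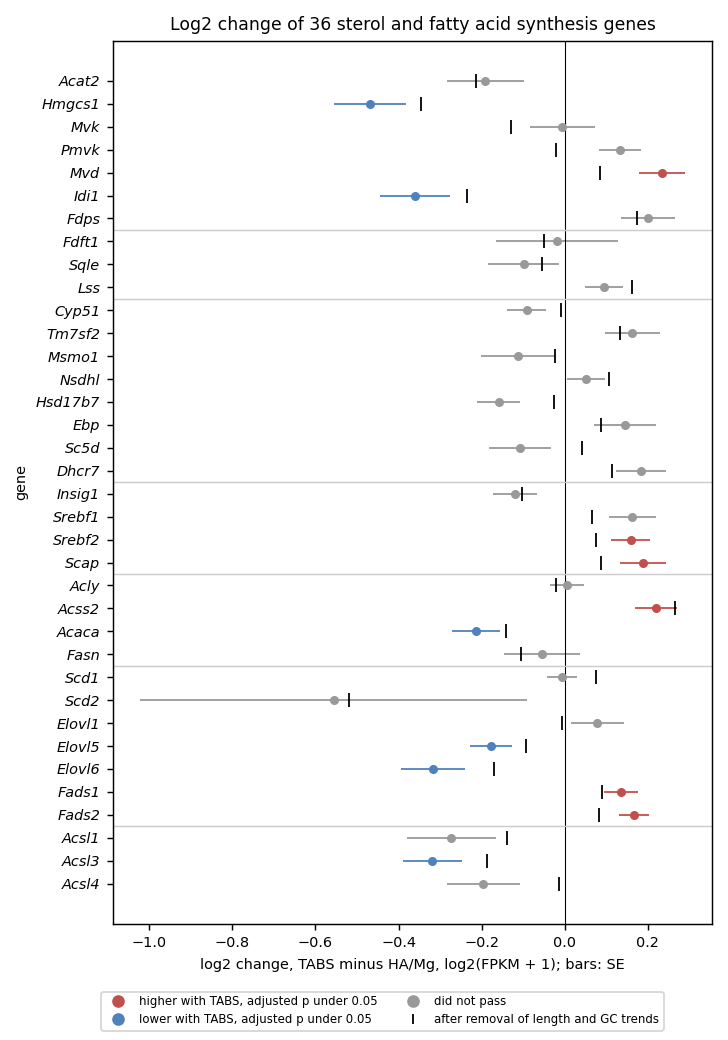
Log2 change of each of the 36 genes (TABS minus HA/Mg, log2(FPKM + 1), horizontal axis) with its standard error, grouped by role down the page; black ticks give the change after correction for length and GC. Most of the 12 coloured points, 6 higher and 6 lower, have their tick nearer to 0, and Scd2 has the widest bar.

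The results depended on single libraries. Leaving out HA/Mg replicate 5 left 1 member called (Hmgcs1), 2.78% of members against 4.11% of all genes. Leaving out HA/Mg replicate 7 also left Hmgcs1 alone (2.78% against 4.71%), and leaving out HA/Mg replicate 8 left 2 members (5.56% against 6.89%). In these 3 fits the members' share lay below that of all genes, so the higher share with all 8 libraries did not hold there. Leaving out HA/Mg replicate 6 gave 16 members (44.4% against 32.7%). Without TABS replicates 5, 6, 7 and 8 in turn, 3, 7, 5 and 7 members were called, or 8.33%, 19.4%, 13.9% and 19.4% of them, against 8.46%, 11.4%, 9.23% and 12.2% of all genes. So without TABS replicate 5 too the members' share was no higher than that of all genes. Hmgcs1 was called in all 8 of these fits, Idi1 and Fads2 in 5, Acsl3 in 4, Acss2 and Elovl6 in 3, Mvd, Acaca, Srebf2 and Scap in 2, and Elovl5 and Fads1 in 1. Log2 changes of the 12 kept their direction in all of them.

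**Figure D2:**
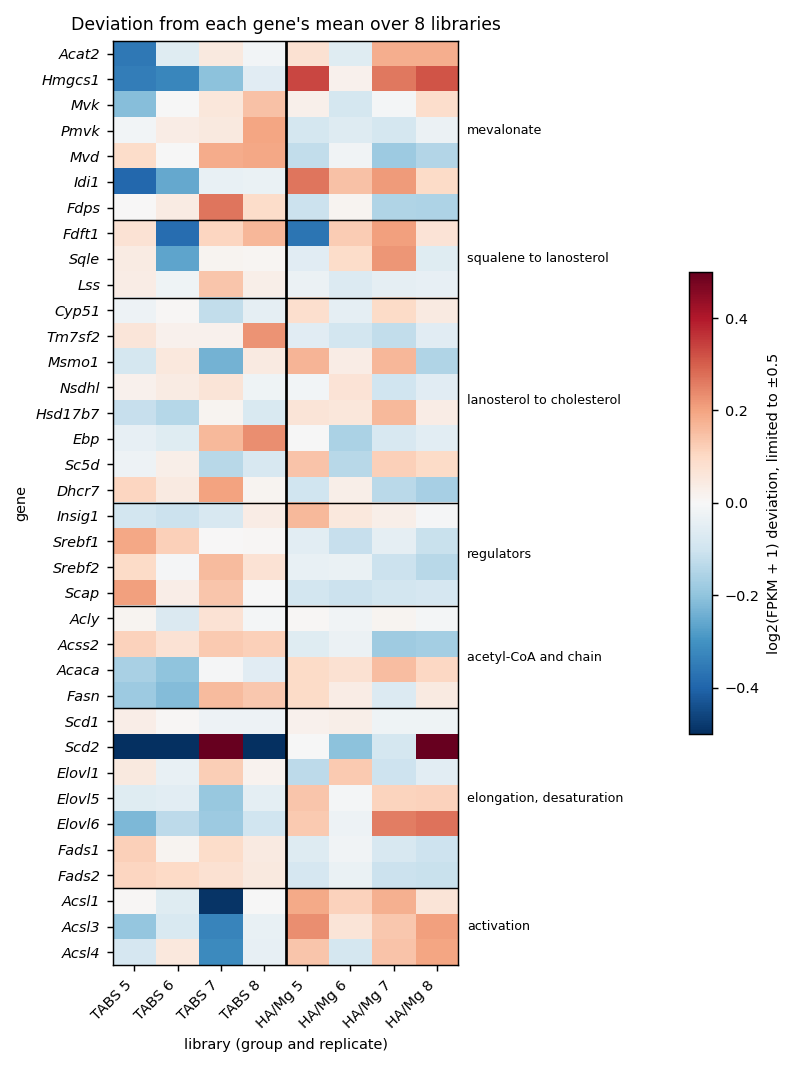
Deviation of log2(FPKM + 1) from each gene's mean over the 8 libraries, limited to ±0.5 (colour), for 36 genes (rows, by role) in 4 TABS libraries (left) and 4 HA/Mg libraries (right). Hmgcs1 and Idi1 are low in the TABS columns, Fads2 and Acss2 high, and Scd2 reaches the colour limit in TABS replicate 7 and HA/Mg replicate 8.

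In the mevalonate steps, which turn acetyl-CoA into farnesyl diphosphate, 2 of 7 genes fell, 1 rose and 4 did not pass. Of all genes tested 13.1% fell and 5.07% rose. Hmgcs1, the cytosolic synthase that makes HMG-CoA (ENSMUSG00000093930, chromosome 13 from 119690379 to 119708260, plus strand), had 11.1, 11.3, 12.3 and 13.8 FPKM in the TABS libraries, against 18.4, 14.6, 17.5 and 18.1 FPKM in the HA/Mg libraries. The highest TABS library lay below the lowest HA/Mg library, replicate 6. Hmgcs1 averaged 12.1 ± 1.23 FPKM with TABS and 17.2 ± 1.74 FPKM with HA/Mg (SD, n = 4 each), 1.42-fold lower, a log2 change of -0.47 ± 0.09 (SE, adjusted p = 0.0133).

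Idi1, the isomerase that supplies dimethylallyl diphosphate (ENSMUSG00000058258, chromosome 13 from 8885501 to 8892451, plus strand), had 11.7, 12.95, 15.2 and 15.3 FPKM in the TABS libraries. It had 19.0, 17.4, 18.3 and 16.8 FPKM in the HA/Mg libraries, all above the TABS libraries. The log2 change was -0.36 ± 0.08 (adjusted p = 0.0232). Of the 50-base windows of its longest transcript 21.3% also occur in other annotated genes. Gm13502, which shares the most, was listed at 12.4 FPKM with TABS and 16.0 FPKM with HA/Mg, so the values of the pair may share reads.

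Mvd, the decarboxylase that makes isopentenyl diphosphate (ENSMUSG00000006517, chromosome 8 from 122433601 to 122443422, minus strand), went the other way. It had 86.2, 80.8, 92.1 and 92.6 FPKM in the TABS libraries, against 74.3, 79.8, 71.2 and 73.0 FPKM in the HA/Mg libraries. The groups did not overlap, but replicates 6 of both groups were close. Its log2 change was 0.23 ± 0.06 (adjusted p = 0.0242).

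Of the mevalonate genes that did not pass, Fdps, the farnesyl diphosphate synthase, was the most abundant sterol gene, at 142 ± 12.1 FPKM with TABS and 123 ± 6.91 FPKM with HA/Mg (adjusted p = 0.0606). Pmvk, the second mevalonate kinase, had 22.4 ± 1.49 against 20.3 ± 0.389 FPKM (TABS against HA/Mg, adjusted p = 0.0955). Mvk, the first kinase, ran between 10.2 and 13.4 FPKM with TABS and between 11.2 and 12.8 FPKM with HA/Mg (adjusted p = 0.958). Acat2, the cytosolic thiolase that opens the path, had 24.4 ± 3.02 FPKM with TABS and 27.9 ± 2.24 FPKM with HA/Mg (adjusted p = 0.165). It shares 45.9% of its 50-base windows with other genes, most often Acat3, which stood at 1.60 FPKM with TABS and 2.11 FPKM with HA/Mg.

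Neither the steps between farnesyl diphosphate and lanosterol nor those after lanosterol held a gene that passed, beside 18.1% of all genes tested. Of the 3 genes that build and close squalene, 0 passed and 0 lay at an unadjusted p under 0.05 in limma. Lss, the cyclase that makes lanosterol, had the smallest p of them, with 17.5, 16.8, 18.9 and 17.5 FPKM in the TABS libraries against 16.7, 16.2, 16.5 and 16.5 FPKM in the HA/Mg libraries (adjusted p = 0.166). All 4 TABS libraries lay above the HA/Mg libraries, the nearest by little. Sqle, the squalene epoxidase, averaged 37.9 ± 3.66 FPKM with TABS and 40.6 ± 3.95 FPKM with HA/Mg (adjusted p = 0.426). Fdft1, the squalene synthase, averaged 32.9 ± 5.41 FPKM with TABS and 33.3 ± 5.59 FPKM with HA/Mg (adjusted p = 0.941). Fdft1 was low in 1 library of each group, at 24.9 FPKM in TABS replicate 6 and 25.2 FPKM in HA/Mg replicate 5, and shares 774 exon bases with Ctsb on the opposite strand.

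Of the 8 genes that turn lanosterol into cholesterol 0 passed, with 3 at an unadjusted p under 0.05 in limma (Hsd17b7, Dhcr7 and Tm7sf2). Hsd17b7, a 3-keto reductase, had 12.5, 12.2, 13.7 and 12.8 FPKM in the TABS libraries, against 14.2, 14.2, 15.3 and 13.95 FPKM in the HA/Mg libraries (log2 change -0.16 ± 0.05, adjusted p = 0.0593). The groups did not overlap, yet TABS replicate 7 and HA/Mg replicate 8 were close. Dhcr7, the last reductase, averaged 18.5 ± 1.14 FPKM with TABS and 16.2 ± 1.03 FPKM with HA/Mg (adjusted p = 0.0611). Tm7sf2, a sterol reductase, was low in these cells, at 2.01 ± 0.208 FPKM with TABS and 1.68 ± 0.0616 FPKM with HA/Mg (adjusted p = 0.109), and shares exon bases with Vps51 on the same strand. The other 5 were the demethylases Cyp51 (27.8 against 29.7 FPKM, TABS against HA/Mg) and Msmo1 (26.1 against 28.3), the dehydrogenase Nsdhl (32.2 against 31.1), the isomerase Ebp (17.6 against 15.8) and the desaturase Sc5d (7.51 against 8.19 FPKM), with adjusted p of 0.185 to 0.444.

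Among the regulators, 2 of 4 rose, beside 5.07% of all genes tested, and 2 did not pass. Srebf2, which encodes SREBP-2, the factor that mainly drives the sterol arm (ENSMUSG00000022463, chromosome 15 from 82147181 to 82205379, plus strand), had 78.3, 72.9, 81.9 and 77.0 FPKM in the TABS libraries. Its values were 71.4, 71.5, 68.0 and 66.4 FPKM in the HA/Mg libraries, below all TABS libraries (log2 change 0.16 ± 0.05, adjusted p = 0.0456). Scap, the SREBP escort (ENSMUSG00000032485, chromosome 9 from 110333288 to 110384950, plus strand), had 11.1, 9.77, 10.6 and 9.52 FPKM with TABS and 8.88, 8.77, 8.88 and 8.93 FPKM with HA/Mg, in the order of replicates. Its HA/Mg libraries were almost equal and the TABS libraries all higher (log2 change 0.19 ± 0.06, adjusted p = 0.0467). Srebf1, whose SREBP-1 products mainly drive fatty acid genes, was the less abundant of the 2 factors at 9.78 ± 0.694 FPKM with TABS and 8.62 ± 0.243 FPKM with HA/Mg, with no overlap between groups and an adjusted p = 0.0749. Insig1, the sterol-responsive retention protein, had 15.7 ± 0.781 against 17.2 ± 0.916 FPKM (TABS against HA/Mg, adjusted p = 0.137). The calls of Srebf2 and Scap ended after rescaling to equal sums (adjusted p = 0.0970 and 0.141). After the length and GC correction 0 of the 4 regulators passed.

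**Figure D3:**
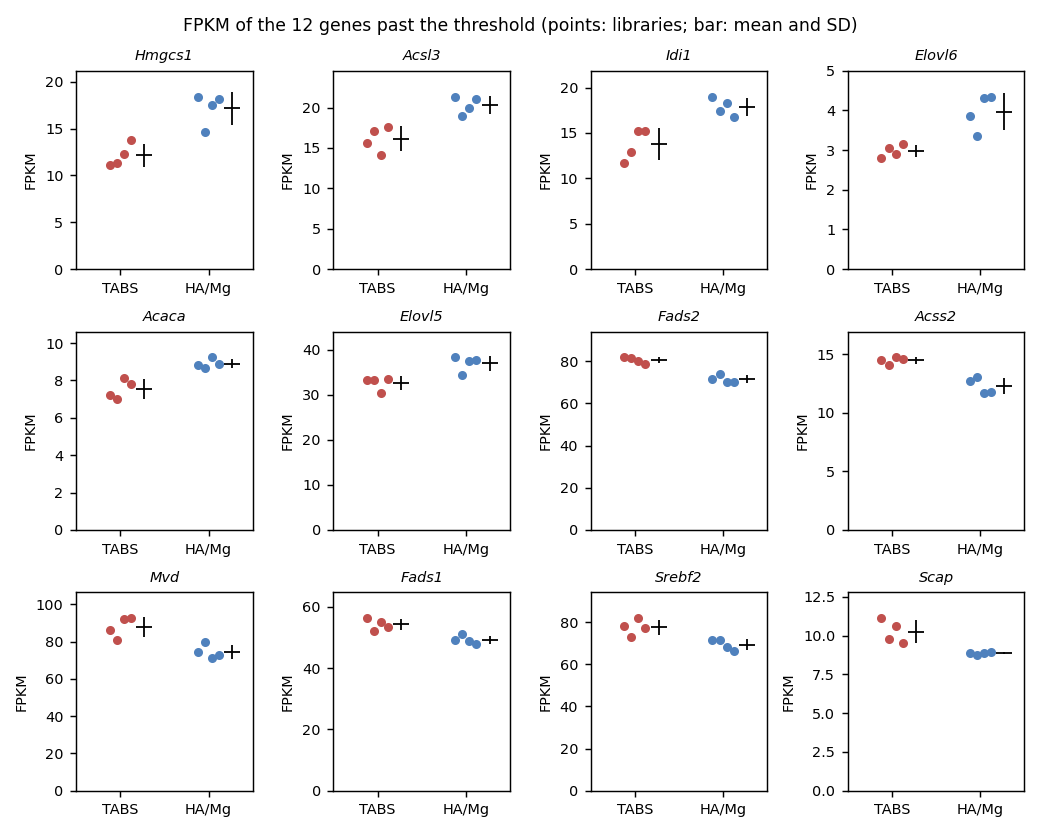
FPKM (vertical axes, from 0) of the 12 genes past the threshold in 4 TABS libraries (left in each panel) and 4 HA/Mg libraries (right), with mean and SD beside the points. The 6 genes lower with TABS come first, and no panel shows overlap between the groups.

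In the fatty acid arm 7 of 14 genes changed (50%, against 18.1% of all genes tested), 3 higher (5.07% of all genes) and 4 lower (13.1% of all genes). With a minimum of 5 FPKM, 6 genes of the arm passed, beside 24.2% of all genes tested. Elovl6 lay below that minimum and was not tested there. Acss2, which makes acetyl-CoA from acetate (ENSMUSG00000027605, chromosome 2 from 155517948 to 155585724, plus strand), had 14.6, 14.1, 14.8 and 14.6 FPKM in the TABS libraries, against 12.8, 13.1, 11.7 and 11.8 FPKM in the HA/Mg libraries. The TABS libraries lay close together and all above HA/Mg replicate 6, the highest of that group. Acss2 averaged 14.5 ± 0.288 FPKM with TABS and 12.3 ± 0.690 FPKM with HA/Mg, 1.18-fold higher (log2 change 0.22 ± 0.05, adjusted p = 0.0209), and shares 395 of its 10163 exon bases with Gss on the opposite strand. Acly, which makes acetyl-CoA from citrate, was far more abundant and did not pass, with means of 106 ± 4.48 FPKM with TABS and 106 ± 1.05 FPKM with HA/Mg (adjusted p = 0.943).

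Acaca, the carboxylase of the committed step (ENSMUSG00000020532, chromosome 11 from 84129672 to 84401651, plus strand), fell. It had 7.20, 6.99, 8.15 and 7.82 FPKM in the TABS libraries and 8.80, 8.68, 9.23 and 8.86 FPKM in the HA/Mg libraries, with no overlap (log2 change -0.21 ± 0.06, adjusted p = 0.0348). With median-of-ratios scaling Acaca did not pass (adjusted p = 0.0860). Of its 50-base windows 52.6% also occur in other genes, most often Gm5182, which was listed at 1.96 FPKM with TABS and 2.40 FPKM with HA/Mg. Fasn, the synthase that assembles palmitate, had 20.1 and 19.6 FPKM in TABS replicates 5 and 6 but 25.7 and 25.3 FPKM in TABS replicates 7 and 8, either side of the 21.9 to 24.7 FPKM of the HA/Mg libraries (adjusted p = 0.703).

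Elongation and desaturation held 2 genes that rose and 2 that fell, of 7, beside 5.07% and 13.1% of all genes tested. Fads2, the first desaturase of polyunsaturated fatty acid synthesis (ENSMUSG00000024665, chromosome 19 from 10062765 to 10101746, minus strand), had 81.9, 81.5, 80.2 and 78.7 FPKM in the TABS libraries, against 71.6, 74.2, 70.4 and 70.3 FPKM in the HA/Mg libraries. Libraries of a group lay close together and the groups stood apart (log2 change 0.17 ± 0.04, adjusted p = 0.0182). Fads1, the desaturase that follows it on the path to arachidonic acid and lies beside it (chromosome 19 from 10182888 to 10196877, plus strand), had 56.3, 52.2, 55.2 and 53.3 FPKM with TABS and 49.4, 51.0, 48.8 and 48.02 FPKM with HA/Mg, in the order of replicates (log2 change 0.14 ± 0.04, adjusted p = 0.0454). Here too the groups did not overlap. After rescaling to equal sums neither desaturase passed (adjusted p = 0.062 for Fads2 and 0.158 for Fads1).

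Elovl6, which elongates palmitate (ENSMUSG00000041220, chromosome 3 from 129532355 to 129638495, plus strand), was the least abundant member of the arm, with 2.80, 3.05, 2.91 and 3.14 FPKM in the TABS libraries and 3.86, 3.36, 4.30 and 4.35 FPKM in the HA/Mg libraries. HA/Mg replicate 6 was the nearest to TABS (1.33-fold lower with TABS, log2 change -0.32 ± 0.08, adjusted p = 0.0257). Elovl5, which elongates polyunsaturated fatty acids (ENSMUSG00000032349, chromosome 9 from 77917364 to 77984519, plus strand), had 33.2, 33.3, 30.3 and 33.4 FPKM with TABS and 38.3, 34.4, 37.5 and 37.6 FPKM with HA/Mg, again without overlap (log2 change -0.18 ± 0.05, adjusted p = 0.0405). With median-of-ratios scaling Elovl5 did not pass (adjusted p = 0.0677). Elovl1, an elongase of very long chains, averaged 39.0 ± 1.86 FPKM with TABS and 37.0 ± 3.22 FPKM with HA/Mg (adjusted p = 0.399), and its exons overlap those of Cdc20 on the opposite strand by 53 bases.

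The stearoyl-CoA desaturases Scd1 and Scd2, which introduce the double bond of oleate, both lie on chromosome 19 and differed in how their libraries spread. Scd1 had 36.1 to 37.7 FPKM with TABS and 36.3 to 37.6 FPKM with HA/Mg, a log2 change of -0.01 ± 0.04 (adjusted p = 0.919). Scd2 had 30.2, 27.9, 104 and 31.8 FPKM in the TABS libraries, against 49.8, 43.2, 46.9 and 133 FPKM in the HA/Mg libraries. In each group 1 library, TABS replicate 7 and HA/Mg replicate 8, stood far above the other 3, and the groups overlapped. Scd2 did not pass (log2 change -0.56 ± 0.47, adjusted p = 0.413). Without both of those libraries, an alternative chosen for the values of Scd2 itself and so no support for a difference, its log2 change was -0.62 (adjusted p = 0.0453), while Hmgcs1 and the other 11 calls were lost and 9 genes in all passed. Scd1 and Scd2 share 4.66% and 4.01% of their 50-base windows with other genes, most often each other.

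**Figure D4:**
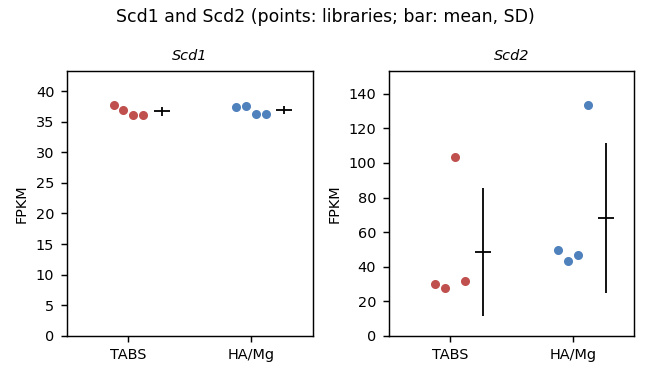
FPKM (vertical axes, from 0) of Scd1 (left panel) and Scd2 (right panel) in 4 TABS libraries and 4 HA/Mg libraries, with mean and SD. Scd1 stays between 36.1 and 37.7 FPKM in all 8, while Scd2 reaches 104 FPKM in TABS replicate 7 and 133 FPKM in HA/Mg replicate 8.

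The acyl-CoA synthetases, which activate fatty acids for esterification or oxidation, had negative log2 changes in 3 of 3, and 1 passed. Over all genes tested 42.3% of log2 changes were positive and 18.1% of genes passed. Acsl3 (ENSMUSG00000032883, chromosome 1 from 78657825 to 78707743, plus strand), which acts at the endoplasmic reticulum and on lipid droplets, had 15.7, 17.1, 14.2 and 17.6 FPKM in the TABS libraries and 21.4, 18.9, 19.96 and 21.01 FPKM in the HA/Mg libraries. The groups did not overlap (1.26-fold lower with TABS, log2 change -0.32 ± 0.07, adjusted p = 0.0197). Acsl1 averaged 5.14 ± 0.927 FPKM with TABS and 6.36 ± 0.294 FPKM with HA/Mg (adjusted p = 0.101), with no overlap and a low TABS replicate 7 at 3.77 FPKM. Acsl4, which prefers arachidonic acid, had 19.9 ± 2.21 against 23.0 ± 2.01 FPKM (TABS against HA/Mg, adjusted p = 0.139), and its groups overlapped.

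The arms were set side by side by their counts and medians. The sterol arm had 3 of 18 changed (16.7%), near the 18.1% of all genes tested, with a median log2 change of -0.01, 8 positive and 10 negative. In the fatty acid arm 7 of 14 had changed, with a median of -0.12, 5 positive and 9 negative. With all 8 libraries, 8 genes of each arm lay at an unadjusted p under 0.05 in limma. The contrast in calls between the arms did not hold without some single libraries. Leaving out HA/Mg replicate 5, 7 or 8 left 0 fatty acid genes called beside 1, 1 and 2 sterol genes. In these fits 7, 7 and 8 fatty acid genes and 6, 6 and 9 sterol genes lay at an unadjusted p under 0.05. Leaving out TABS replicate 5 left 1 fatty acid gene called beside 2 sterol genes. Without TABS replicates 6, 7 and 8 in turn, 4, 3 and 4 fatty acid genes were called, each time beside 2 sterol genes. Without HA/Mg replicate 6 there were 8 beside 6. After the length and GC correction 1 gene passed in each arm, and the medians were -0.058 in the fatty acid arm and -0.015 in the sterol arm. No test of the arms against each other was made, since both were chosen with results of these data known. Per library, the sterol arm's median deviation from each gene's mean was -0.02 to 0.05 with TABS and -0.04 to 0.04 with HA/Mg. That of the fatty acid arm was -0.06 to 0.03 with TABS and -0.01 to 0.06 with HA/Mg, so the groups overlapped in both. Leaving out Acly and Acss2, which feed both arms, and the 3 acyl-CoA synthetases moved the fatty acid median to -0.05.

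GC content moved with the direction of change. Across the 36 members the log2 change rose with the GC content of the longest transcript (Spearman correlation 0.71 across genes, which share libraries and are not replicates), as it did across all genes tested (0.54). It fell with the length of that transcript (Spearman correlation -0.34 across the members and -0.31 across all genes tested). Among the 12 members richest in GC (52.1% to 59.1%) 10 changes were positive, 5 genes rose and 0 fell. Among the 12 poorest (39.0% to 46.2%) 1 change was positive, 0 genes rose and 5 fell. Over all genes tested 42.3% of changes were positive, 5.07% of genes rose and 13.1% fell. Shares for all genes of like GC content were not worked out, so these counts show nothing particular to the members. The 6 genes that rose had a median GC content of 56.1% and the 6 that fell 43.6%.

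With length and GC content fitted and subtracted in each library, 2 of the 12 calls remained (783 genes, or 7.71% of those tested, passed in all). Hmgcs1 still fell, with a log2 change of -0.35 ± 0.08 (adjusted p = 0.0400), and Acss2 still rose, by 0.27 ± 0.05 (adjusted p = 0.0254), larger than before. Acss2 has a GC content of 47.8%, and the other 5 genes that rose have 52.2% to 59.1%. The log2 changes of the other 10 kept their direction and shrank: Idi1 to -0.23 (adjusted p = 0.120), Mvd to 0.08 (adjusted p = 0.200), Fads2 to 0.08 (adjusted p = 0.118), Acsl3 to -0.19 (adjusted p = 0.0748) and Elovl6 to -0.17 (adjusted p = 0.120). The medians of the GC-rich and GC-poor members moved to 0.07 and -0.06, against 0.15 and -0.19 as deposited. Length and GC content were removed together, and whether either has a part in the lost calls was not tested.

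**Figure D5:**
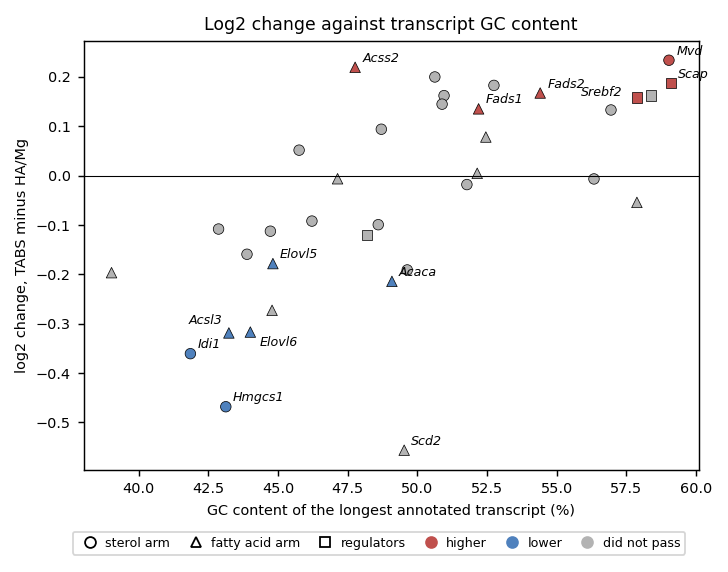
Log2 change of the 36 genes (TABS minus HA/Mg, vertical axis) against the GC content of the longest annotated transcript in percent (horizontal axis), with arms by symbol and calls by colour. Genes lower with TABS sit at 41.9% to 49.1% GC and those higher, apart from Acss2, at 52.2% to 59.1%.

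Other genes of the same pathways, 48 in a second list, were described the same way: 36 were tested, 2 rose, 4 fell and 30 did not pass (16.7% changed, against 18.1% of all genes tested). Of 10 other sterol and isoprenoid genes 2 fell, among them Acat1, the mitochondrial thiolase (58.5 ± 2.27 FPKM with TABS, 64.7 ± 2.07 FPKM with HA/Mg, adjusted p = 0.0466). Of 9 tested genes of SREBP control and SREBP targets 2 fell, Erlin1, an endoplasmic reticulum protein that restrains SREBP activation (14.5 ± 0.926 against 18.1 ± 0.798 FPKM, TABS against HA/Mg, adjusted p = 0.0137), and the sterol carrier Stard4 (10.01 ± 0.247 against 11.9 ± 1.16 FPKM, adjusted p = 0.0477, with overlap between the groups). All 9 had a negative log2 change, with a median of -0.17 that became -0.03 after the length and GC correction. Over all genes tested 42.3% of log2 changes were positive and 13.1% of genes fell. With each library left out in turn, Erlin1 was called in 7 of 8 fits and Acat1 and Stard4 in 1 each. Erlin1 also passed after the length and GC correction (adjusted p = 0.0317), while Stard4 and Acat1 did not (adjusted p = 0.338 and 0.469).

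Of 13 tested further fatty acid genes 2 rose, beside 5.07% of all genes tested. Acot7, a cytosolic acyl-CoA thioesterase, had 98.3, 101, 104 and 99.5 FPKM in the TABS libraries, against 81.8, 88.7, 82.4 and 82.8 FPKM in the HA/Mg libraries (log2 change 0.26 ± 0.04, adjusted p = 0.00940). It passed in all 8 fits with a library left out and after the length and GC correction (adjusted p = 0.0445). Slc27a1, a fatty acid transporter, averaged 33.9 ± 2.82 FPKM with TABS and 28.7 ± 1.16 FPKM with HA/Mg (adjusted p = 0.0366), and was called in 3 of 8 fits with a library left out. Slc27a1 did not pass after the length and GC correction (adjusted p = 0.232). Of the liver X receptors and their targets 4 were tested and 0 passed in limma, with 1 at an unadjusted p under 0.05.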

How the data were processed

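The 8 libraries were grouped by sample title, and columns were tied to samples by the library name in the sample description. Per the labels' protocols, RNA was extracted with TRIzol, libraries were made with a NEBNext Ultra RNA kit and sequenced as paired ends. Per the submitters' processing notes, fastp, STAR, DESeq2 and the build GRCm38 were used; the tool behind the FPKM values, the annotation and any use of strand are unknown, being not given in the sources used here. FPKM values for 55335 genes were deposited by the authors, of which 55154 matched GENCODE M21.

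The spacing of low values implied 20000000 to 23900000 fragments per library, or 39400000 to 47200000 units on a finer spacing, and 33.8% to 41.0% of low values, or 41.8% to 46.6% on the finer spacing, came out whole within 0.05, so depth is an estimate and no count test was run. At the coarser spacing Tm7sf2, the lowest member, held 109.8 fragments or more (counting error up to 9.54%, which covers counting error only).

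Genes with at least 1 FPKM in at least 4 libraries were tested with limma 3.58.1 (R 4.3.3, empirical Bayes with trend) on log2(FPKM + 1); tests were two-sided and p-values were adjusted by Benjamini-Hochberg over 10161 genes; changes are on that scale, which understates those of low genes. On simulated data for TABS against HA/Mg over 10161 genes it recovered 30% of genes changed by 0.3, 70% at 0.5, 92% at 1 and 100% at 2 on the log2 scale, with 8 false calls among 154. The simulation changed 50 genes at each size, against 1842 calls in the data. Its noise was drawn independently for each gene, without trends shared across a library, so these rates may not carry over.

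All 36 members are named; library values are given for those that changed and, in roles where none did, for the smallest p. Those of Scd2, Fasn and Acot7 were added after their values were seen, and promoters are printed for 4 of the 12 members that changed. Of the second list changed genes are named; 1 of them is not reported here. Members and lists were chosen with earlier results of these data known. Length and GC trends (natural splines, 4 degrees of freedom) were removed per library. Alternatives were other pseudocounts, filters, scalings, moderation, weights, a replicate block and each library left out. Windows of 50 bases were compared with all GENCODE M21 transcripts.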

Additional observations from a re-analysis of the deposited data

Results flagged for a closer look

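In groups of 4 libraries, 1 library lay far from the other 3 for 9 of the 86 sets examined; chance flags about 1 in 20, or 4.3 here. Scd2 stood at 103.6 FPKM in TABS replicate 7, against 27.9 to 31.8 FPKM in the other TABS libraries, and at 133.4 FPKM in HA/Mg replicate 8, against 43.2 to 49.8 FPKM in the others. TABS replicate 7 was also low for Elovl5 (30.27 FPKM, others 33.2 to 33.4), Acsl1 (3.77 FPKM, others 5.40 to 5.72) and Erlin1 (13.14 FPKM, others 14.9 to 15.2). Sqle was 32.41 FPKM in TABS replicate 6 (others 39.4 to 40.2) and Insig1 16.86 FPKM in TABS replicate 8 (others 15.2 to 15.4). HA/Mg replicate 6 stood apart for Stard4 (10.2 FPKM, others 12.4 to 12.7) and Acot7 (88.72 FPKM, others 81.8 to 82.8), on the side of the TABS libraries in both genes.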

How the results depend on the processing

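No call of a member turned its direction under any alternative. Other pseudocounts (0.1 and 0.5) and robust moderation kept all 12 calls. Over all genes, the sterol arm and the fatty acid arm, the numbers that passed were 808, 1 and 2 with no filter on low values and 783, 1 and 1 after the length and GC correction. Array weights gave 3532, 8 and 8. Leaving out TABS replicate 7 with HA/Mg replicate 8, chosen after seeing the data, gave 9, 0 and 1, with 6 sterol members at an unadjusted p under 0.05. Quantile normalization gave 6 sterol genes, and adding the regulators to that arm 5. With each library left out in turn the ranges were 414 to 3309, 1 to 6 and 0 to 8. Where the fatty acid arm had 0, 7 or 8 of its members lay at an unadjusted p under 0.05, beside 6 or 9 of the sterol arm. The median log2 change of the sterol arm was -0.060 after rescaling to equal sums, 0.041 with median-of-ratios scaling, 0.023 with the regulators added and -0.066 to 0.020 with 1 library left out. That of the fatty acid arm was -0.16 after rescaling to equal sums, -0.061 with median-of-ratios scaling, -0.058 after the length and GC correction, -0.054 at a minimum of 5 FPKM or without supply and activation genes, and -0.15 to -0.10 with 1 library left out.

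When replicate number entered as a block, limma made 0 calls over all genes, 0 in the sterol arm and 0 in the fatty acid arm (smallest adjusted p 0.0589), while 2987 genes and 19 members lay at an unadjusted p under 0.05. Same-numbered libraries correlated at -0.27 to 0.13 in their deviations and differently numbered ones at -0.25 to 0.38. The labels do not say what a number marks, so whether the libraries are paired is unknown, and the values given elsewhere are from the fit without the block.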
